A study of Homo sapiens with 6 samples.

Results

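YAP and TAZ target genes were examined in H2087-LCC cells, a human lung adenocarcinoma population selected for latent metastasis. The 10 members are CYR61, CTGF, ANKRD1, AMOTL1, AMOTL2, AXL, FJX1, LATS2, CRIM1 and GADD45A, found by symbol among the 21293 genes of the deposited table, where CYR61 and CTGF carry the older names of CCN1 and CCN2. They were chosen by symbol after their levels in these same libraries had been seen, so their differences between the 3 groups are given as a description and carry no test. The groups were cells kept for 3 days with SB505124 (SB), which blocks the kinase of the TGFβ receptor ALK5, cells given TGFβ for 3 days and cells given TGFβ for 7 days, with 2 poly(A) RNA libraries in each. All groups were the same dormant metastatic derivative with no further genetic change named. SB was sampled at 3 days alone, so the 7-day libraries differ from SB in time in culture as well as in treatment. Between 7 and 3 days of TGFβ, length of treatment and time in culture also differ together and cannot be told apart. The study names the paired libraries technical replicates, so the spread between them need not cover variation between cultures.

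YAP (YAP1) and TAZ (WWTR1) are coactivators that have no DNA-binding domain of their own and act on genes through TEAD factors. The Hippo kinase cascade, which ends in LATS1 and LATS2, phosphorylates them and holds them in the cytoplasm. Cell spreading, tension on the actin cytoskeleton and stiff matrix favour their entry into the nucleus, and their activity in lung adenocarcinoma is commonly read from transcripts such as CYR61, CTGF and ANKRD1. Of the 10 members, 9 belong to a target signature in wide use across cancer types, and AMOTL1 is the exception.

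The treatment and the cells were checked on genes outside the list. All 6 direct TGFβ targets examined (SMAD7, SKIL, PMEPA1, TGFBI, LTBP2 and JUNB) rose at 3 days against SB, by 2.02 to 5.24 on the log2 scale (limma, adjusted p under 0.05 for each). The summed normalized count of 5 leukocyte markers lay between 9 and 27 in the 6 libraries. That of 10 markers of lung adenocarcinoma epithelium was 89642 to 134039, mostly from KRT8 and KRT18 (means of 36896 and 49030 in SB). At 3 days against SB, 7 of the 10 were lower and 1 was higher (limma adjusted p under 0.05). Over all genes the shares were 14.0% and 14.9%. At 7 days the numbers were the same, beside 26.9% and 27.7%. SFTPB went from a mean of 4688 to 24 and 20.5, and NKX2-1 from 2846 to 730 and 855. The 4 endothelial markers summed to 73 to 81 in SB, 132 to 136 at 3 days and 173 to 177 at 7 days. In group means, TEK (11.5, 61.5 and 116) and PECAM1 (38.5, 64 and 54.5) were higher under TGFβ. CDH5 (17, 3 and 1) and VWF (10, 5.5 and 3.5) were lower. The 5 fibroblast markers summed to 210 to 260, 287 to 358 and 465 to 599. COL1A1 made up most of these sums (means of 223, 302 and 519) and carried their rise, while LUM was at 0 in every library. Normalized counts summed to between 34306283 and 36340734 per library, from an estimated 32000000 to 40000000 assigned reads. This read estimate is rough, since the fit behind it had an r of 0.21 to 0.61 across libraries. In bulk RNA, fewer cells of a kind and less RNA per cell cannot be told apart.

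Promoter sequence was available for 7 of the 10 members, in 9 windows that run from 250 bases before to 50 bases after a start site (RefSeq, GRCh38.p14). The TEAD motif GGAATG stood on either strand in 5 of the 9 windows, each of a different member, and before the start site in 4, against 14.0% of all 35116 windows over their full length and 11.9% before the start. The 250 bases before the start are shown for these 4 genes and for AMOTL1, which had no TEAD motif in its window. FJX1 had none either, and its levels were lower at 7 days, while those of AMOTL1 were higher. CYR61, CRIM1 and GADD45A were lower at 7 days and had no window. Capitals mark the TEAD motif, which reads CATTCC where it lies on the other strand. The CTGF sequence is chr6:131951373-131951622 on the minus strand, ANKRD1 is chr10:90921088-90921337 on the minus strand and the AMOTL2 start is chr3:134374448-134374697 on the minus strand. The AXL start is chr19:41226505-41226754 on the plus strand and AMOTL1 is chr11:94768106-94768355 on the plus strand.
CTGF: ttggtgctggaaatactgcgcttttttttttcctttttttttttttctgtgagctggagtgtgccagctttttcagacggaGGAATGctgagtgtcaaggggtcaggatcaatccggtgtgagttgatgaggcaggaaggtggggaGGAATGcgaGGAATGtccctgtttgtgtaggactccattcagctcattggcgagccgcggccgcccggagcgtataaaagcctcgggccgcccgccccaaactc
ANKRD1: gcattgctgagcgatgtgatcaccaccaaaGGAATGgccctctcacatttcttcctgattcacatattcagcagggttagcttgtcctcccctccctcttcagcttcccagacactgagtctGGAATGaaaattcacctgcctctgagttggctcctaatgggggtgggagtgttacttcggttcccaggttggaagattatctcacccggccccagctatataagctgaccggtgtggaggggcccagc
AMOTL2: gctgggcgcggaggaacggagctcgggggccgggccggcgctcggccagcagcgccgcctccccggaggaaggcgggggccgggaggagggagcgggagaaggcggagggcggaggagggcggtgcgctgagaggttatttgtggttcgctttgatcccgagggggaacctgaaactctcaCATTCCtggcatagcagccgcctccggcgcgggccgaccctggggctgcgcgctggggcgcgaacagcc
AXL: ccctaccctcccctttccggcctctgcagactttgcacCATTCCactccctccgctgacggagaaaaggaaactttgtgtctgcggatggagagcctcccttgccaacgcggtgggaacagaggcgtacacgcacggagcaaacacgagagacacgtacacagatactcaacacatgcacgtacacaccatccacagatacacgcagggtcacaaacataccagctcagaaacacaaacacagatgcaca
AMOTL1: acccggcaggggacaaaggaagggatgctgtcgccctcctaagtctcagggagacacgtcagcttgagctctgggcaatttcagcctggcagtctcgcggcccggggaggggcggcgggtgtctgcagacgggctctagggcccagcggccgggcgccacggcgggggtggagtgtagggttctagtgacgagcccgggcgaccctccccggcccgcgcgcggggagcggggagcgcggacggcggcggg

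CTGF held 3 TEAD motifs, which begin 169, 104 and 95 bases before the start, the last pair close together. ANKRD1, a stretch-responsive ankyrin repeat protein of muscle, held 2, at 220 and 128 bases before the start. AMOTL2 held 1 at 69 bases and AXL 1 at 212 bases, each in only 1 of the 2 windows of the gene, while LATS2 held 1 after its start site, at base 10. FJX1 had none of the motifs searched. The AP-1 motif TGANTCA was found in 1 member, ANKRD1, at 195 bases before the start (7.71% of all windows). The SMAD-binding element GTCTG was found in 7 of the 9 windows, which belong to 6 members, against 45.3% of all windows, and in ANKRD1 the one at 132 bases before the start shares its last base with a TEAD motif. No window of the members held the CArG box (1.29% of all windows). These matches describe letters in a window and not binding.

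**Figure D1:**
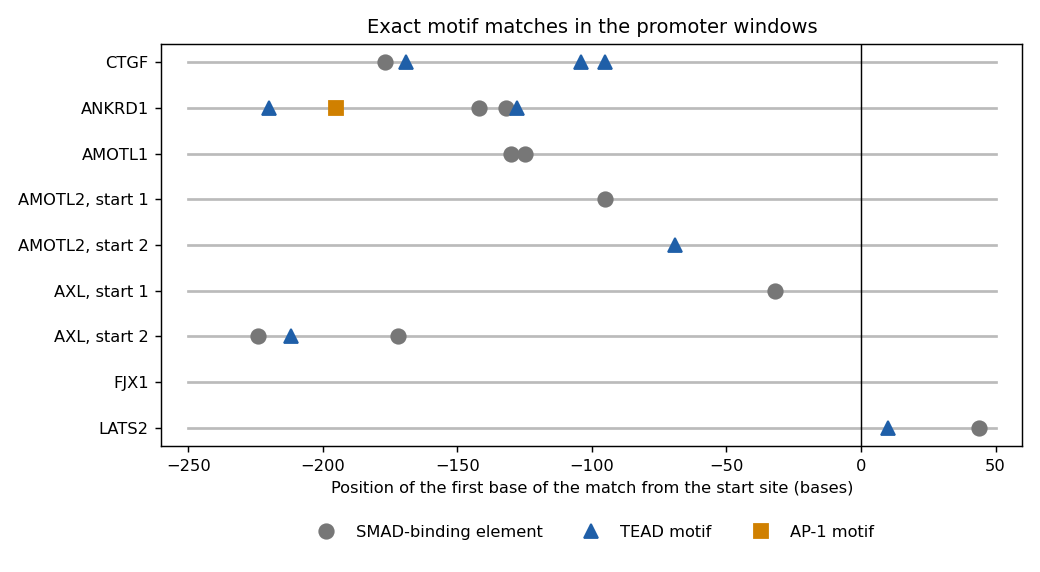
Exact motif matches on either strand in the 9 promoter windows of 7 members, drawn by the distance of their first base from the start site in bases (negative values lie before it). CTGF has 3 TEAD motifs (triangles) before the start, ANKRD1 has 2, and AMOTL1 and FJX1 have none.

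The members fell into 3 sorts of pattern. CYR61, CTGF, FJX1, LATS2 and CRIM1 had every 3-day library above, and every 7-day library below, both SB libraries. ANKRD1, AMOTL2, AXL and GADD45A overlapped SB at 3 days and lay below it at 7 days. AMOTL1 alone overlapped SB at 3 days and lay above it at 7 days. The first pattern was met by 259 of the 14395 genes tested (1.80%), which is given for scale and not as a test of the members. Both 7-day libraries lay below both SB libraries in 5550 of these genes (38.6%) and above both in 5606. The shares of the other patterns over all genes were not counted.

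**Figure D2:**
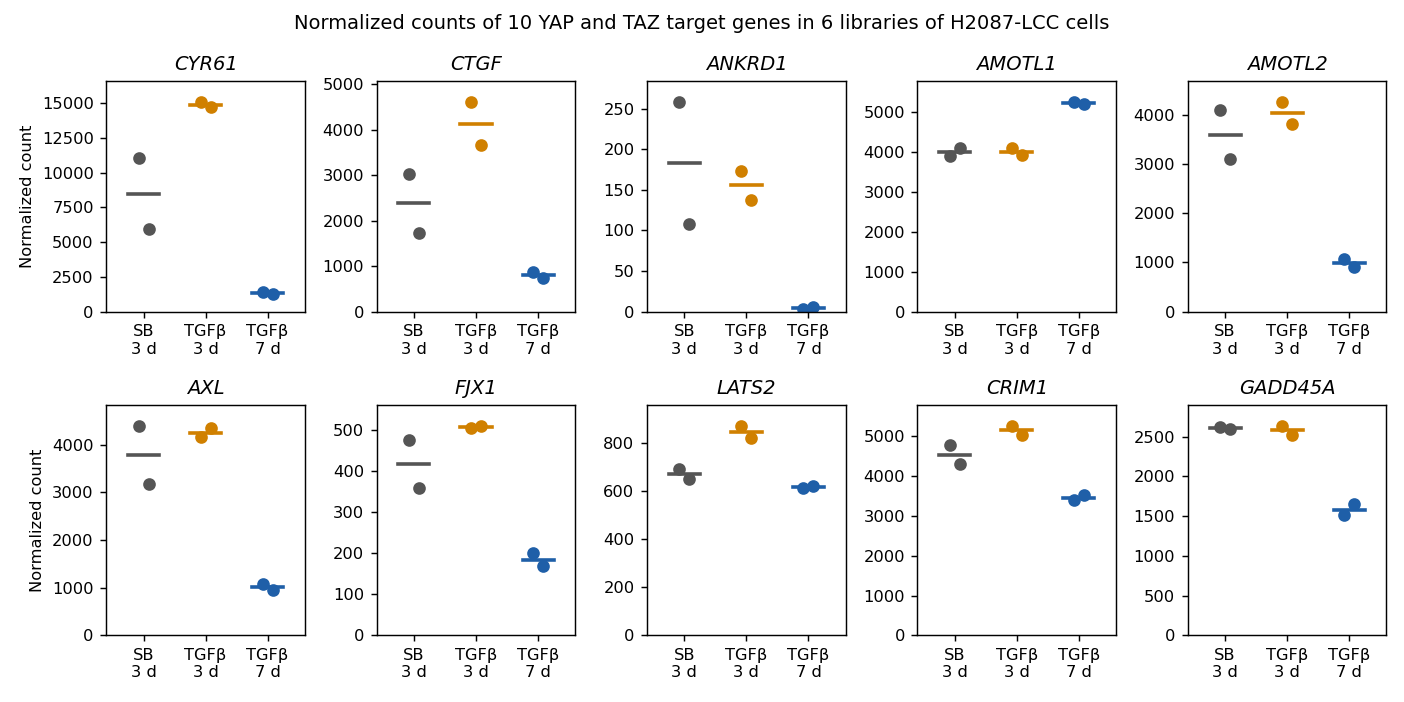
Normalized counts of the 10 members in each of the 6 libraries (points), with the mean of each group of 2 (lines) and a separate y axis from 0 for each gene. In 9 genes both 7-day libraries are lower than both 3-day libraries, and in AMOTL1 both are higher. Over all 14395 genes tested, both are lower in 32.9% and higher in 5214 genes.

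The secreted and surface proteins come first. CYR61 (chr1:86046444-86050272, plus strand, GRCh37) encodes a matricellular protein that binds integrins. Its normalized count was 11080 and 5910 in SB, 15074 and 14686 after 3 days of TGFβ and 1408 and 1262 after 7 days. The 3-day libraries were both above the SB libraries and the 7-day libraries were far below either. The difference in log2(normalized count + 1) was 0.88 ± 0.21 (SE, n = 2 per group) at 3 days against SB and -3.48 ± 0.21 at 7 days against 3 days, with the 7-day mean at 0.0897 of the 3-day mean.

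CTGF (chr6:132269316-132272512, minus strand, GRCh37), the matricellular paralogue of CYR61 and a driver of matrix production, followed the same course at a lower level. Its normalized counts were 3032 and 1724 in SB, 4608 and 3657 at 3 days and 881 and 751 at 7 days, with no overlap between groups. The log2 difference was 0.84 ± 0.21 at 3 days against SB, -1.49 ± 0.21 at 7 days against SB and -2.33 ± 0.21 at 7 days against 3 days. A further CCN family member, NOV (CCN3), did not share it. The level of NOV was 0.17 above SB at 3 days (limma adjusted p = 0.346) and rose by 0.54 at 7 days (adjusted p = 0.00434). WISP1, WISP2 and WISP3 stayed under 5 normalized counts in each library and were not tested.

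AXL (chr19:41725128-41767671, plus strand, GRCh37) is the receptor tyrosine kinase for GAS6. Normalized counts were 4395 and 3179 in SB, 4161 and 4344 at 3 days and 1080 and 961 at 7 days. The SB and 3-day libraries overlapped, and both 7-day libraries were far lower, with a mean at 0.240 of that at 3 days. The other receptors of its family differed from it and from each other. MERTK fell at both times against SB, with log2 differences of -1.30 after 3 days and -3.04 after 7 days (limma adjusted p = 1.44e-05 and 5.31e-09), whereas TYRO3 rose by 0.42 and 0.69 (adjusted p = 0.0147 and 0.000265). The 3-day call of TYRO3 was lost without SB library 1 (adjusted p = 0.0590) and without 3-day library 2 (0.137).

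CRIM1 (chr2:36582921-36778278, plus strand, GRCh37) is a transmembrane protein with cysteine-rich repeats that binds bone morphogenetic proteins. Its counts were 4769 and 4285 in SB, 5257 and 5031 at 3 days and 3397 and 3510 at 7 days, a narrow version of the course of CTGF. FJX1 (chr11:35640008-35642413, plus strand, GRCh37), a Golgi and secreted protein related to Drosophila four-jointed, was at 476 and 358 in SB, 504 and 510 at 3 days and 200 and 168 at 7 days. Both genes had groups that did not overlap. From 3 to 7 days the log2 difference was -0.57 ± 0.09 for CRIM1 and -1.46 ± 0.16 for FJX1.

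ANKRD1 (chr10:92671853-92680844, minus strand, GRCh37) had the lowest counts and the largest relative difference. It was at 258 and 108 in SB, 173 and 138 at 3 days and 3 and 6 at 7 days. The SB libraries bracketed the 3-day libraries, and the 7-day libraries were close to the floor of detection. The sum of 311 at 3 days against 9 at 7 days is a ratio of 34.6 (95% exact binomial interval 18.0 to 76.3, for counting error only and with normalized counts taken as reads). On the log2 scale the difference from 3 to 7 days was -4.88 ± 0.39, the lowest of the 14395 genes tested, and -4.09 with a pseudocount of 5.

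GADD45A (chr1:68150884-68154017, plus strand, GRCh37), a stress-induced growth arrest gene also under control of p53, was nearly level between SB and 3 days. Its counts were 2625 and 2598 in SB, 2639 and 2526 at 3 days and 1515 and 1650 at 7 days. Both 7-day libraries lay below the other 4, with a log2 difference of -0.71 ± 0.09 from 3 days. Its paralogue GADD45B, a known TGFβ-responsive gene, rose by 0.90 at 3 days against SB (limma adjusted p = 0.000102) and fell by 1.01 from 3 to 7 days (adjusted p = 0.000102).

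The remaining 3 members encode proteins that restrain YAP and TAZ in negative feedback. The motins AMOTL1 and AMOTL2 bind YAP at junctions and on actin. AMOTL2 (chr3:134074189-134094321, minus strand, GRCh37) was at 4086 and 3092 in SB, 4258 and 3816 at 3 days and 1074 and 910 at 7 days. AMOTL1 (chr11:94439597-94609913, plus strand, GRCh37) was at 3904 and 4098 in SB, 4098 and 3924 at 3 days and 5262 and 5202 at 7 days. The paralogues thus stood at similar counts in SB and at 3 days and apart at 7 days. Their log2 differences from 3 to 7 days were -2.03 ± 0.13 for AMOTL2 and 0.38 ± 0.08 for AMOTL1.

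LATS2 (chr13:21547175-21635725, minus strand, GRCh37), the kinase that phosphorylates YAP and TAZ, differed least among the members that were lower at 7 days. Its counts were 694 and 652 in SB, 872 and 821 at 3 days and 614 and 622 at 7 days. The groups did not overlap, although the 7-day mean was within 0.12 ± 0.11 of SB on the log2 scale. Its paralogue LATS1 was 0.09 above SB at 3 days (limma adjusted p = 0.525) and rose by 0.29 at 7 days (adjusted p = 0.0188), a call lost without SB library 1 (0.0597) and without 7-day library 2 (0.186).

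**Figure D3:**
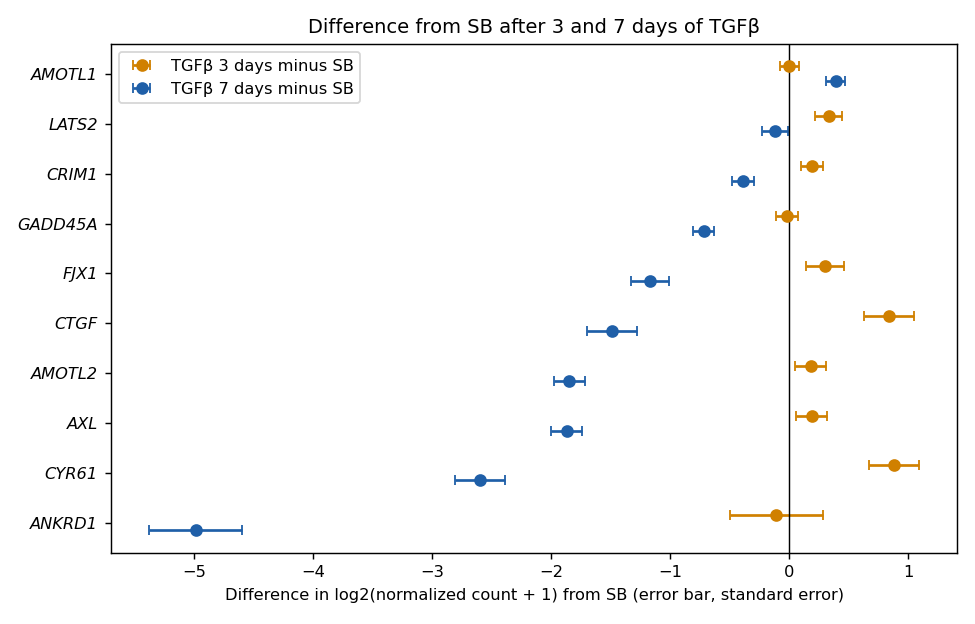
Difference from SB in log2(normalized count + 1) for each member after 3 days (orange) and 7 days (blue) of TGFβ, with the standard error of the fit as bars and genes ordered by the 7-day value. At 7 days 9 of 10 genes lie below 0, from -0.12 for LATS2 to -4.99 for ANKRD1, and AMOTL1 lies at 0.39. Over all 14395 genes tested, 7208 lie below 0.

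Counted by the limma call made over all genes (adjusted p under 0.05), which is no evidence here since the members were picked on these values, 3 of 10 were higher and 0 lower at 3 days against SB, beside a background of 14.9% of all genes higher and 14.0% lower. Those 3 were CYR61, CTGF and LATS2, and the count was 5 without SB library 1, 1 without SB library 2 or 3-day library 1 and 2 without 3-day library 2. At 7 days against SB, 1 was higher and 8 were lower, beside 27.7% and 26.9% of all genes, and LATS2 was not called. From 3 to 7 days, 1 was higher and 9 were lower, beside 17.0% and 16.2%, and 8 were lower without 3-day library 1 or either 7-day library. Both libraries lay beyond both of the other group, upward, for 5 members at 3 days against SB (30.3% of all genes), and downward for 9 members at 7 days against SB (38.6%) and for 9 at 7 days against 3 days (32.9%). The median log2 difference of the 10 members was 0.19, -1.33 and -1.74 in the 3 comparisons, against -0.02, -0.00 and 0.02 over all genes tested.

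The order of levels among the members differed between the groups when counts were divided by the exonic length of each gene. In SB the normalized count per kilobase was highest for CYR61 at 2300 ± 989 (SD, n = 2), then GADD45A at 1360 ± 9.92, CTGF at 1020 ± 396 and AXL at 738 ± 167. The SD of CYR61 is larger than the distance of its mean from that of GADD45A. For CTGF the SD is larger than its distance from GADD45A and from AXL, so this order in SB is not firm. At 3 days CYR61 at 4020 ± 74.2 and CTGF at 1770 ± 288 led, with GADD45A at 1340 ± 41.5. By the length of the longest transcript, GADD45A (1910) was instead above CTGF (1770) at 3 days. At 7 days GADD45A at 822 ± 49.6 per kilobase led, then AMOTL1 at 522 ± 4.23 and CRIM1 at 475 ± 11.0, with CYR61 at 361 ± 27.9 and CTGF at 349 ± 39.3 within their spread of each other. By the longest transcript CYR61 was at 433 against the same 349 for CTGF. ANKRD1 was last in each group, at 102 ± 59.3, 86.9 ± 13.8 and 2.51 ± 1.19 per kilobase. Its SB libraries span the level of LATS2 (120 ± 5.29), the next gene up.

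The SB libraries differed from each other on these genes more than the TGFβ pairs did. SB library 1 was above SB library 2 in 9 of the 10 members, against 50.7% of all genes tested. The 3-day pair was also one-sided in direction, with library 1 higher in 8 of 10 against 51.6%, but its gaps were small. The gap was 1.25 on the log2 scale for ANKRD1, 0.91 for CYR61, 0.81 for CTGF, 0.47 for AXL, 0.41 for FJX1 and 0.40 for AMOTL2. It was 0.15 or less in size for CRIM1, LATS2, GADD45A and AMOTL1, the members that differed least from 3 to 7 days. A gap as large as that of ANKRD1 was seen in 1.56% of all genes, and one as large as that of CYR61 in 3.80%. The median size of the gap over the 10 members was 0.406 in the SB pair, 0.0632 in the 3-day pair and 0.163 in the 7-day pair, against 0.160, 0.128 and 0.119 over all genes.

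The gap within the SB pair ordered the members much as the difference between 7 and 3 days did. The members were chosen with their levels in all of these libraries seen, so this order is no separate support. Across the 10 members Pearson's r was -0.97 and Spearman's coefficient -0.95. Over all 14395 genes they were -0.37 and -0.39, and over 24 other targets -0.43 and -0.28. For the 10 members Pearson's r and Spearman's coefficient were -0.49 and -0.19 with the gap of the 3-day pair, and 0.43 and -0.10 with that of the 7-day pair. These are correlations across genes that share their libraries, given as a description with no test. Epithelial markers ran the other way in the SB pair, with SB library 1 lower in 9 of 10, among them the surfactant gene SFTPB at 1104 and 8273 and MUC1 at 448 and 1289. Their part in the gap of the members was not tested.

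**Figure D4:**
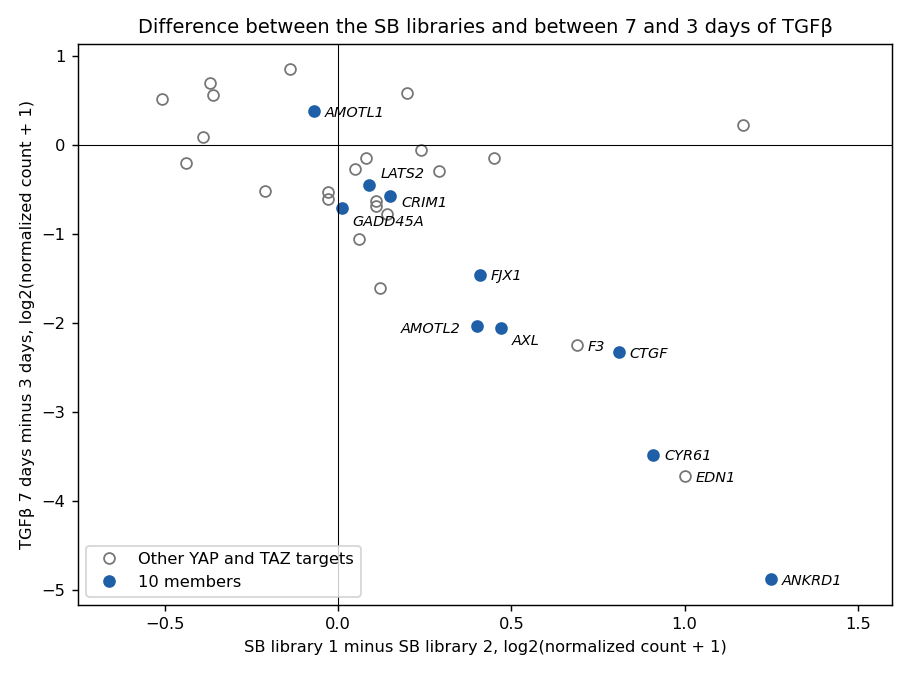
Each point is a gene, placed by SB library 1 minus SB library 2 (x axis) and by TGFβ 7 days minus 3 days (y axis), both in log2(normalized count + 1). The 10 members (filled) run from AMOTL1 at -0.07 and 0.38 to ANKRD1 at 1.25 and -4.88, with the other targets as open points, among them F3 at 0.69 and -2.25.

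The 3-day values of several members depended on the SB library used. Without SB library 2 the 3-day difference was 0.43 for CYR61 and 0.44 for CTGF, and without SB library 1 it was 1.33 and 1.25. The sign itself differed between these settings for ANKRD1 (-0.74 and 0.51), AMOTL2 (-0.02 and 0.38), AXL (-0.05 and 0.42) and, near 0, AMOTL1 (0.04 and -0.03). LATS2 at 0.29 and 0.38 and GADD45A at -0.02 and -0.01 hardly depended on it. Leaving out a 3-day library also turned the sign of ANKRD1 (-0.27 and 0.05), GADD45A (-0.05 and 0.02) and AMOTL1 (-0.03 and 0.04), all of which overlapped SB. At 7 days against SB, leaving out 1 library of either group kept the difference below 0 for every member but AMOTL1. It ran from -5.61 to -4.36 for ANKRD1, from -0.17 to -0.08 for LATS2 and from 0.35 to 0.42 for AMOTL1. Since these groups did not overlap for any member, the sign could not turn, and this is no separate support.

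Other targets of YAP and TAZ did not move as one group. Of 25 listed genes outside the members, 24 were tested, and FGF2 was too low. At 3 days against SB, 9 rose, 9 fell and 6 were not past the threshold (limma, adjusted p under 0.05), with a median log2 difference of -0.10. Over all genes 14.9% rose and 14.0% fell. The rises included those of THBS1, which encodes thrombospondin 1 (3.53, limma adjusted p = 2.90e-09), and CCDC80 (1.41, adjusted p = 6.10e-06). The largest falls were those of SDPR (-3.70), IGFBP3 (-2.85) and AREG (-2.65). AREG had low counts, at 26 and 50 in SB and 4 and 6 at 3 days, and its difference was -2.05 with a pseudocount of 5. THBS1, TGFB2, EDN1, TGM2 and FSTL1 are also known as TGFβ-responsive genes. The median was -0.72 at 7 days against SB and -0.28 from 3 to 7 days. At 7 days against SB, 8 rose and 14 fell, beside 27.7% and 26.9% of all genes. From 3 to 7 days 4 rose and 11 fell, beside 17.0% and 16.2%. Without 3-day library 1 or 7-day library 1 the last count was 2 and 9.

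Between 7 and 3 days, the genes of this list that fell most were EDN1, F3 and DLC1. EDN1, which encodes endothelin 1, was at 201 and 100 in SB, 89 and 95 at 3 days and 4 and 9 at 7 days, much like ANKRD1 in both the SB gap and the drop (-3.72, limma adjusted p = 5.30e-05). F3, the gene of tissue factor, was at 2289 and 1420 in SB, 3992 and 3210 at 3 days and 782 and 720 at 7 days. It rose by 0.99 at 3 days (limma adjusted p = 0.00163, and 0.0549 with no filter on low values) and fell by 2.25 from 3 to 7 days (adjusted p = 1.25e-05). DLC1, a GTPase-activating protein and tumour suppressor, fell by 1.61 from 3 to 7 days (limma adjusted p = 1.39e-05) after a 3-day difference of 0.43 (adjusted p = 0.0312) that was not past the threshold in 5 other settings, among them without SB library 2 (adjusted p = 0.115) and without 3-day library 1 (0.227). F3 and DLC1 were the 2 genes of the list with the above-then-below pattern of CYR61 and CTGF. The genes that rose most from 3 to 7 days were TGM2 (0.85, adjusted p = 8.91e-05), ARHGEF17 (0.70, adjusted p = 0.00731) and NT5E (0.59, adjusted p = 0.000632). The call of ARHGEF17 was lost without 3-day library 1 (adjusted p = 0.0567) and without 7-day library 1 (0.0882).

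**Figure D5:**
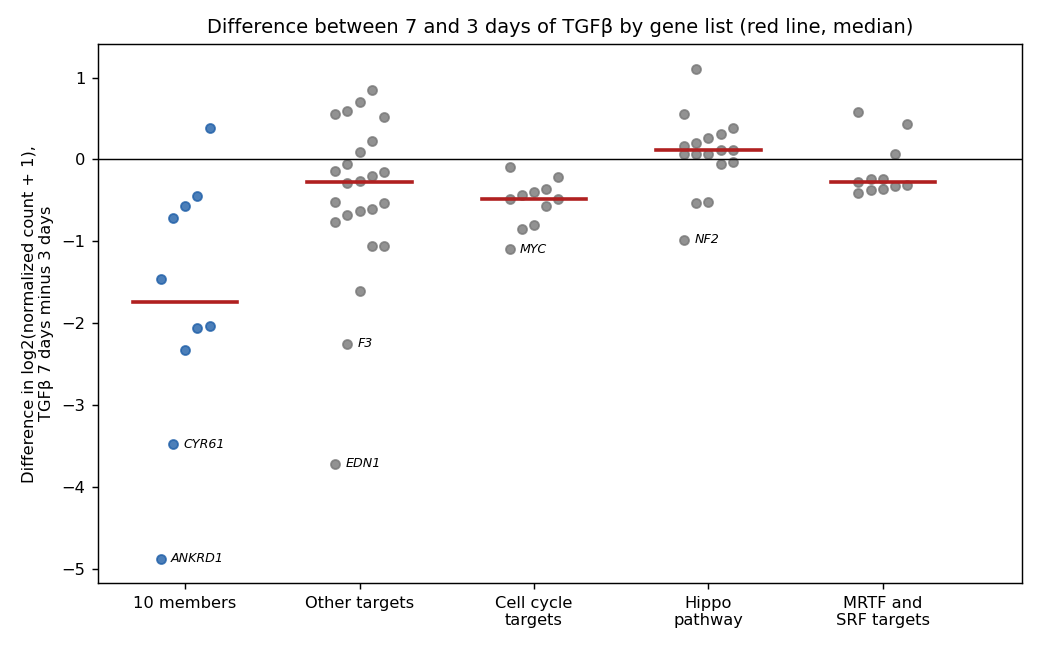
Difference in log2(normalized count + 1) between 7 and 3 days of TGFβ for each tested gene (points) of 5 lists, with the median of each list (red line). The median is -1.74 for the 10 members, which were chosen on these values, -0.28 for the other targets, -0.48 for the cell cycle targets, 0.12 for the Hippo pathway and -0.28 for MRTF and SRF targets.

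Cell cycle genes also named as YAP and TAZ targets, which many other routes set, were mostly lower at the later time. Of 11, 9 fell from 3 to 7 days and 0 rose, beside 16.2% and 17.0% of all genes. The 9 included MYC (-1.10, limma adjusted p = 1.44e-05), HMMR (-0.85, adjusted p = 0.000386) and CDC20 (-0.80, adjusted p = 0.000118). Without the trend 8 fell, and the count was also lower without 3-day library 1 or 7-day library 1. CCND1 had risen at 3 days (0.64, adjusted p = 0.000100) and differed by -0.09 after that (adjusted p = 0.391).

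The transcripts of the coactivators themselves did not track the members. YAP1 was at 11587 and 10196 in SB, 12882 and 11990 at 3 days and 11797 and 12612 at 7 days, with no call in the 3 comparisons (limma adjusted p = 0.125, 0.132 and 0.842). WWTR1 rose by 0.38 from 3 to 7 days (adjusted p = 0.00398, and 0.0733 without 7-day library 2). Of the 17 Hippo pathway genes tested, 4 rose and 3 fell in that comparison, beside 17.0% and 16.2% of all genes, and 2 rose and 1 fell without 7-day library 2. Without 3-day library 1 the count was 3 and 1. The extremes were NF2 (-0.98, limma adjusted p = 3.91e-05) and TEAD2 (1.11, adjusted p = 0.00102). RNA levels do not show where YAP and TAZ lie in the cell.

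CYR61, CTGF and ANKRD1 are known targets of the actin-regulated MRTF and SRF route as well. Of 11 tested genes of that route, 6 rose and 0 fell at 3 days against SB, beside 14.9% and 14.0% of all genes. From 3 to 7 days 1 rose and 3 fell, with a median of -0.28, beside 17.0% and 16.2%. The 3 that fell were FHL2, ACTB and ACTG1. None of them kept the call without 7-day library 1 or without 7-day library 2, and 1 gene of the route fell without 3-day library 2. The count of rises at 3 days was 4 without 3-day library 2. TPM1 rose by 1.14 and then by a further 0.58 (limma adjusted p = 1.29e-05 and 0.00272). ACTB fell by 0.41 from 3 to 7 days (adjusted p = 0.0165), a call lost without 3-day library 2 (0.121) and without 7-day library 1 (0.0570) or 2 (0.158).

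The profiles most like those of 3 members were taken by Pearson's r of log2(normalized count + 1) over the 6 libraries, among 2364 genes with a mean of at least 100 and a range of at least 1. For CYR61 they were FJX1 (0.995), POLR3G (0.995), TNS4 (0.993), DLC1 (0.988) and CTGF (0.987). For CTGF they were F3 (0.996), CYR61 (0.987), MECOM (0.981), FJX1 (0.978) and DLC1 (0.977). For ANKRD1 a row whose symbol is a number in the table came first, followed by TM4SF1 (0.994), HSP90AA1 (0.993), C11orf82 (0.991) and SPRR2C (0.991). An r of 0.9 or more was reached by 84 genes for CYR61, 42 for CTGF and 234 for ANKRD1. All of these values share the same 6 libraries in 3 groups. Among the other members the r with CYR61 was lowest for AMOTL1 (-0.96) and LATS2 (0.85).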

How the data were processed

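RNA was analyzed in 6 poly(A) libraries of H2087-LCC cells, 2 per group. The authors aligned read pairs to hg19 with STAR, counted genes with HTSeq 0.6.1p1 at its defaults and scaled the counts by library size with DESeq2 (listed as 3.4). Reads were checked with FastQC 0.11.5 per the labels. The deposited table holds these normalized counts rounded to whole numbers (recorded as a score, since they are no longer read counts).

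Values were taken as log2(normalized count + 1), and limma 3.58.1 (R 4.3.3) was run on the 14395 genes whose mean reached 10 (empirical Bayes with a trend, 3 residual degrees of freedom, all 6 libraries). The study's negative binomial test needs read counts. P-values were adjusted by Benjamini-Hochberg over all genes tested, at 0.05, for each of 3 comparisons. With 2 libraries against 2, an exact two-sided permutation test cannot give a p below 0.333. Because the libraries may be technical replicates, the limma p-values measure only the spread between these libraries. The members and all gene lists were chosen with earlier results of these data known. Members are described by their values, log2 difference and SE, with no p. Non-members were named by role or as the 3 largest rises and falls of a list, of which 1 gene is not reported here. Depth was estimated from the steps between low values and covers counting error only. Levels per kilobase used the summed exons of GENCODE v44 lifted to GRCh37. Promoter windows came from RefSeq by symbol, and motifs were sought as exact letters on both strands. The fit was tested on simulated data. Alternatives were other pseudocounts, filters and scalings, no trend, 4 libraries, a replicate block and each library left out.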

Additional observations from a re-analysis of the deposited data

Results flagged for a closer look

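CYR61, CTGF, FJX1, LATS2 and CRIM1 had both 3-day libraries above and both 7-day libraries below both SB libraries. The difference from SB thus ran in opposite directions at the 2 times, though in some genes it was small. On the log2 scale it was 0.30 ± 0.16 (SE) for FJX1 and 0.19 ± 0.09 for CRIM1 at 3 days, and -0.12 ± 0.11 for LATS2 at 7 days. The log2 difference between 7 and 3 days was -3.48 for CYR61, -2.33 for CTGF, -1.46 for FJX1, -0.45 for LATS2 and -0.57 for CRIM1, and this difference was not tested for these 5 genes, since they were chosen on such values. Among the other targets, F3 (-2.25, limma adjusted p = 1.25e-05) and DLC1 (-1.61, limma adjusted p = 1.39e-05) had the same order of libraries. Their difference between 7 and 3 days was past the threshold. They were picked here for the order of the libraries around SB, which already puts 7 days below 3 days. The adjusted p-values are therefore no separate support for that order, which was not tested. The 3-day difference of DLC1 from SB was not past the threshold in 5 other settings. The SB pair was itself 0.91 apart for CYR61, 0.81 for CTGF and 0.69 for F3, and its part in the pattern was not tested. For LATS2 the higher 7-day library (622) was close to the lower SB library (652).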

How the results depend on the processing

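The number of other targets past the threshold kept within 1.5 times of its value in each setting run: 18 at 3 days against SB (13 to 18), 22 at 7 days against SB (21 to 22) and 15 at 7 days against 3 days (11 to 15). With the replicate block it was 16, 22 and 14. The labels link same-numbered libraries by number alone. Over 14395 genes their deviations correlated at 0.14 for SB with 3 days, -0.10 for SB with 7 days and -0.292 for 3 with 7 days. What lies behind these correlations was not tested. The block lost the calls of MYOF and ASAP1 at 3 days and of DOCK5 at 7 against 3 days. Outside the fits that left out a library, 6 member differences moved by more than 1 SD between libraries and no called one changed sign. They were AMOTL1 (-0.05) and GADD45A (-0.07) at 3 days and AMOTL1 (0.34) and LATS2 (-0.17) at 7 days against SB with equal library totals, and ANKRD1 (-4.20 and -4.09) with a pseudocount of 5. Members called higher at 3 days numbered 0 without the trend, 1 with no filter on low values and 1 without 3-day library 1, against 3. Of 128 called differences of other listed genes, 36 lost the call in at least 1 setting. Over all genes, 4775 differed between 7 and 3 days, 3042 with no filter, 3122 without the trend and 2294 to 3268 with 1 library left out. At 3 days 4170 differed from SB, and 2608 did without 3-day library 1. Equal library totals turned the 3-day split of 2149 higher and 2021 lower to 1819 and 2552. Leaving out 1 library moves a difference by at most about that SD by construction, and for CYR61 at 3 days gave 0.43 to 1.33. At 7 days ANKRD1 is limited by counts of 3 and 6. The causes were not tested.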
